A study of Mus musculus with 6 samples.

Results

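Stra8, Sohlh2, Mael, Asz1, Tuba3b and Ly6k, 6 genes of germ cells and of entry into meiosis, were followed by RNA sequencing in cells derived from mouse embryonic stem cells. They were taken by name, and all 6 were found among the 2031 genes of the table analysed. The cells came from the J1 line (strain 129S4/SvJae) and were grown as embryoid bodies, cell aggregates that formed in hanging drops over 3 days under a protocol meant to yield heart muscle cells. The MF group (3 libraries) was kept under a static magnetic field in its incubator and the NC group (3 libraries) in a conventional incubator. Both groups are 1 cell line, described by the submitters as biological triplicates. The sources used here do not state the field strength, the exposure time or the collection day.

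The table holds selected genes: in the authors' deposited table no adjusted p exceeds 0.0499, and no log2 fold change of MF over NC is closer to 0 than 1.001 in either direction. The 6 genes were also chosen with that difference known. Their fold changes are therefore a description, and no test is given for them. Library totals lay between 16276230 and 19176383 counts in MF and between 14929232 and 16110497 counts in NC. Levels are given as FPKM, read fragments scaled to gene length and library total, so that genes can be compared with each other. In a gene 1 kb long, 3 counts make 0.156 to 0.201 FPKM at these depths. Replicate 2 stood apart in both groups, and values without it are given below.

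In the embryo, germ cells arise early and later enter meiosis when retinoic acid, a derivative of vitamin A, switches on Stra8 in the gonad. Germ cells also silence transposons with small RNAs bound by PIWI proteins, the piRNA pathway, which is assembled in cytoplasmic granules beside mitochondria. In mouse embryonic stem cells many such genes are held down by a non-canonical Polycomb complex containing MGA, MAX, E2F6 and PCGF6 and by DNA methylation, and some are expressed at low levels. In a bulk sample, fewer cells of a type and less RNA per cell cannot be told apart.

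The 6 genes lie on 4 chromosomes of the mouse build mm10. Stra8 (chr6:34920163-34939344, plus strand), Asz1 (chr6:18050964-18109061, minus strand) and Tuba3b (chr6:145615757-145621479, plus strand) are on chromosome 6, which holds 6.55% of the table's genes. Sohlh2 is at chr3:55182028-55209957 on the plus strand, Mael at chr1:166201201-166238747 on the minus strand and Ly6k at chr15:74796874-74799986 on the minus strand. The identifiers are ENSMUSG00000029848 (Stra8), ENSMUSG00000027794 (Sohlh2), ENSMUSG00000040629 (Mael), ENSMUSG00000010796 (Asz1), ENSMUSG00000067338 (Tuba3b) and ENSMUSG00000044678 (Ly6k). All 6 are protein-coding, and their coordinates equal those of GENCODE M21. For 4 of them, Stra8, Sohlh2, Mael and Asz1, none of the 50-base windows of their annotated transcripts occurred in a transcript of another gene. Tuba3b shared 29.6% of its windows with other genes, chiefly its copy Tuba3a elsewhere on chromosome 6, whose coding sequence of 1350 bases is 96.96% identical. Ly6k shared 32.7% of its windows with Gm17189, an antisense gene annotated over it on the opposite strand. The sources used here do not say whether counting used strand or how reads with several matches were treated, so the values of Tuba3b and Ly6k are uncertain to that extent.

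Promoter sequence was available in the RefSeq table (GRCm38.p6, the sequence of mm10) for 5 of the 6 genes and for Tuba3a. It is shown because the 5 genes were low and high in nearly the same libraries. The 250 bases before each annotated start site were searched on both strands for CACGTG, the E-box bound by MGA and MAX, for TCCCGC, a core of E2F sites, for AGGTCA, a core of sites for retinoic acid receptors and other nuclear receptors, and for TTCCGG, a core of ETS sites. Matches are in capitals below, and all 3 windows read 5′ to 3′ on the gene's own strand.
Mael, chr1:166238745-166238994, minus strand: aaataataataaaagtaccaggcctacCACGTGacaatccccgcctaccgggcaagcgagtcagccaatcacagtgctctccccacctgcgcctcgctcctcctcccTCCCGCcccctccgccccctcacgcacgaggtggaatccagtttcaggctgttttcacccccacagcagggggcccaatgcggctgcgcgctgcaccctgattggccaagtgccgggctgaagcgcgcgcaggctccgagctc
Asz1, chr6:18109062-18109311, minus strand: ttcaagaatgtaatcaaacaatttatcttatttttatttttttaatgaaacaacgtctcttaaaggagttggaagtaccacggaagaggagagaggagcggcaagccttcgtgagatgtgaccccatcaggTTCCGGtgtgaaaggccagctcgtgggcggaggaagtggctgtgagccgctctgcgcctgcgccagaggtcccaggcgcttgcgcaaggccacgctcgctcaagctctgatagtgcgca
Sohlh2, chr3:55181794-55182043, plus strand: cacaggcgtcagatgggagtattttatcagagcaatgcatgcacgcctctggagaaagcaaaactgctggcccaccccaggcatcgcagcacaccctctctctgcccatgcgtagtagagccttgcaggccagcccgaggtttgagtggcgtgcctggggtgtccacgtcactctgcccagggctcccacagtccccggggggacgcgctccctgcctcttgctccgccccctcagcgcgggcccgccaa
Mael held 1 CACGTG, at -223 from the start site, a motif found in 6.02% of all 32851 windows of the table, and 1 TCCCGC, found in 16.9%. Among windows of the deposited genes these shares were 8.92% and 22.3% for genes lower in MF, and 6.4% and 25.6% for genes higher in MF. Asz1 held 1 TTCCGG, found in 12.03% of windows, and none of the other 3 motifs. Sohlh2 held none of the 4. The looser E-box CANNTG, which includes CACGTG and is found in 66.2% of windows, occurred 3 times in Mael, once in Sohlh2 and not in Asz1.

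All 250 bases of the Stra8 window and 206 bases of the Tuba3b window lie in exons annotated by GENCODE, so only 30 bases around the matches are shown. The start site used lies 785 bases inside the GENCODE gene for Stra8 and 206 bases inside it for Tuba3b.
Stra8, chr6:34920742-34920771, plus strand: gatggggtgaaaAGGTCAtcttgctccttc
Stra8, chr6:34920898-34920927, plus strand: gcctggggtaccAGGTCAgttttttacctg
Tuba3b, chr6:145615716-145615745, plus strand: aaagccctccccAGGTCAcgcatgcgcaga
Tuba3b, chr6:145615845-145615874, plus strand: actccagagcctTCCCGCcaaatttacatc
Tuba3a, chr6:125286183-125286212, minus strand: actccagagcctTCCCGCcaaagccacatc
Stra8 held 2 copies of AGGTCA on the same strand, at -194 and -38 from the RefSeq start site, both inside annotated exons. At least 1 copy was found in 14.0% of windows, and 2 or more on 1 strand in 0.819%. Tuba3b held 1 AGGTCA and 1 TCCCGC, and the stretch around TCCCGC matched that of Tuba3a at 27 of 30 bases. Over the whole window, aligned with gaps, the 2 tubulin genes were identical at 180 of 283 positions (63.6%), and no value for unrelated sequences was computed. The 2 windows cover unlike parts of the genes: 206 bases of that of Tuba3b and 0 of that of Tuba3a lie in annotated exons. The ratio of observed to expected CpG dinucleotides was 0.901 in Asz1, 0.75 in Mael, 0.710 in Tuba3b, 0.542 in Sohlh2 and 0.267 in Stra8, against a median of 0.374 over all windows. The median was 0.477 over windows of the deposited genes lower in MF and 0.562 over those of the deposited genes higher in MF. The 5 genes thus shared no single motif of those searched, and a match marks letters, not a bound site.

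All 6 genes were lower in MF, and in none did the groups overlap. Of the 1651 genes tested, 34.2% had groups that do not overlap with MF lower and 58.4% with MF higher. The edgeR quasi-likelihood test called 35.4% lower and 62.1% higher, 97.5% in either direction, so nothing is read from these counts for genes chosen on this difference. Summed over the 6 genes, the level was 2.39, 15.6 and 6.78 FPKM in MF replicates 1, 2 and 3, against 63.5, 228.3 and 49.3 FPKM in NC replicates 1, 2 and 3. The sum was lowest in MF replicate 1 and highest in NC replicate 2.

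**Figure D1:**
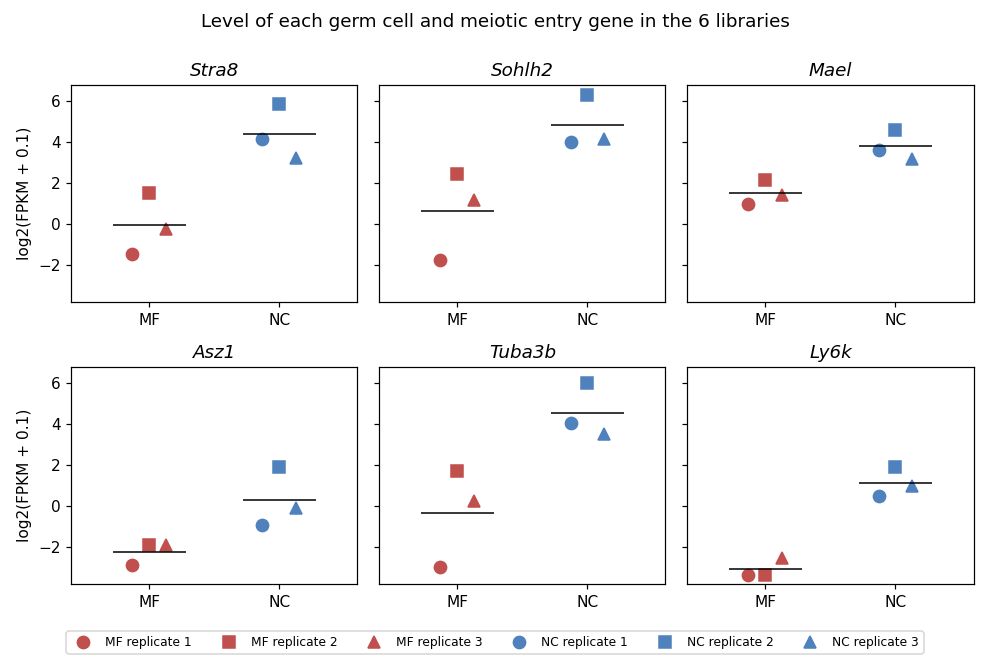
Level of each gene as log2(FPKM + 0.1) in the 3 MF and 3 NC libraries; marker shape gives the replicate number and the line the group mean. In all 6 panels every MF library lies below every NC library, and NC replicate 2 is the highest library.

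Stra8, which germ cells need to start meiosis, had 0.260, 2.74 and 0.750 FPKM in MF replicates 1, 2 and 3, against 17.5, 57.3 and 9.06 FPKM in NC replicates 1, 2 and 3. The lowest NC library was 3.31 times the highest MF library. The means were 1.25 ± 1.31 FPKM in MF and 28.0 ± 25.8 FPKM in NC (SD, n = 3 each), and the fitted log2 fold change was -4.48 with an SE of 0.95. In each group the SD was close to the mean, and replicate 2 was the high library in both.

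Sohlh2 encodes a basic helix-loop-helix factor that works with SOHLH1 in spermatogonia and oocytes. It had 0.199, 5.29 and 2.16 FPKM in MF replicates 1, 2 and 3, against 15.9, 77.1 and 17.5 FPKM in NC replicates 1, 2 and 3. MF replicate 1 rested on 9 counts and NC replicate 2 on 2938 counts, the highest of any of the 6 genes. The means were 2.55 ± 2.57 FPKM in MF and 36.8 ± 34.9 FPKM in NC (SD, n = 3 each), with a log2 fold change of -3.85 (SE 1.03). SOHLH1, its partner, is not in the table and was not analysed here.

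Mael and Asz1 belong to the piRNA pathway. Mael, whose protein sits in the germ granules and is needed to silence transposons, had 1.87, 4.33 and 2.55 FPKM in MF replicates 1, 2 and 3, against 12.2, 23.9 and 8.70 FPKM in NC replicates 1, 2 and 3. Its log2 fold change of -2.36 (SE 0.55) was the smallest of the 6, and its libraries within a group were the closest together of the 4 genes with a mean above 10 FPKM in NC (on the log2(FPKM + 0.1) scale, with an SD of 0.59 in MF and 0.74 in NC). Mael also had the most counts of the 6 in MF replicate 1, at 62.

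Asz1, also called Gasz, encodes a scaffold protein that anchors the piRNA machinery at mitochondria. It had 0.0369, 0.168 and 0.174 FPKM in MF replicates 1, 2 and 3, against 0.429, 3.69 and 0.852 FPKM in NC replicates 1, 2 and 3. These rest on 2, 8 and 8 counts in MF and 19, 168 and 36 counts in NC. The log2 fold change was -3.70 (SE 0.98), and without NC replicate 2 it was -2.33. NC replicate 2 was 5.75 times the mean of the other NC libraries, the highest such ratio of the 6 genes.

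Tuba3b encodes an alpha-tubulin made mainly in the testis, and Ly6k a surface protein of developing sperm anchored by a glycolipid. Tuba3b had 0.0294, 3.12 and 1.07 FPKM in MF replicates 1, 2 and 3, against 16.2, 62.6 and 11.4 FPKM in NC replicates 1, 2 and 3. MF replicate 1 rested on 1 count, against 93 and 31 in MF replicates 2 and 3, which made this the widest spread within a group among the 6 genes on the log2(FPKM + 0.1) scale (SD 2.37). The log2 fold change was -4.42 (SE 1.15). Its copy Tuba3a had 1.49, 27.7 and 6.60 FPKM in MF and 72.8, 160.0 and 51.8 FPKM in NC, in the same order of libraries, with a log2 fold change of -2.99 (SE 0.90). Both copies were thus lowest in MF replicate 1 and highest in NC replicate 2.

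Ly6k had 0, 0 and 1 count in MF replicates 1, 2 and 3, against 17, 48 and 23 counts in NC replicates 1, 2 and 3. In FPKM these are 0, 0 and 0.0741 in MF and 1.31, 3.59 and 1.86 in NC. With a single MF count, the ratio of NC to MF counts per library total was 98.5, with an exact 95% interval from 17.2 to 3933 that covers counting error alone. The fitted log2 fold change of -6.12 depends on the prior count added by edgeR and is no bound. Ly6k was the one gene of the 6 in which MF replicate 2 was not above MF replicate 1.

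The order of the 6 levels differed between the groups. By mean FPKM the order in MF was Mael, Sohlh2, Tuba3b, Stra8, Asz1 and Ly6k, and in NC it was Sohlh2, Tuba3b, Stra8, Mael, Ly6k and Asz1. In MF the libraries of neighbouring genes in this order overlapped except between Stra8 and Asz1. In NC they overlapped except between Mael and Ly6k. In every NC library Mael came below Sohlh2, Tuba3b and Stra8. In MF replicates 1 and 3 it was the highest of the 6, and in MF replicate 2 only Sohlh2 was higher.

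**Figure D2:**
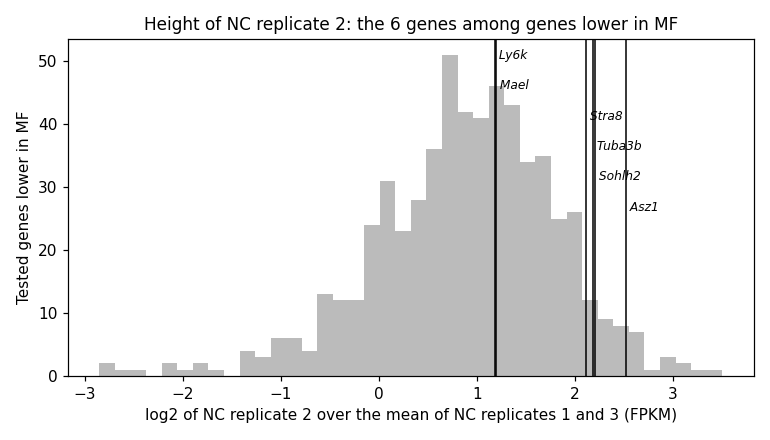
Distribution over the 599 tested genes lower in MF of log2 of NC replicate 2 over the mean of NC replicates 1 and 3, with the 6 genes as vertical lines. Mael and Ly6k stand a little above the median of all these genes, and Stra8, Sohlh2, Tuba3b and Asz1 stand in the upper tail.

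The spread within the groups was shared. NC replicate 2 was the highest library for all 6 genes and for 80.8% of the 599 tested genes lower in MF. Against the mean of the other NC libraries it was 4.31 times as high for Stra8, 4.62 times for Sohlh2, 4.55 times for Tuba3b and 5.75 times for Asz1, and 2.29 times for Mael and 2.27 times for Ly6k. The median of this ratio over the 599 genes was 1.91, and 90% of them were below 3.87. In MF, replicate 2 was the highest library for 4 genes, at 5.43, 4.49, 5.66 and 1.96 times the mean of the other MF libraries for Stra8, Sohlh2, Tuba3b and Mael, against a median of 2.00 over the 599 genes. MF replicate 1 was the lowest library for 5 of the 6 genes and tied with MF replicate 2 at 0 for Ly6k. Without both replicate 2 libraries, a comparison chosen after seeing the data, the log2 fold changes were -4.74 for Stra8, -3.85 for Sohlh2, -2.24 for Mael, -2.62 for Asz1, -4.69 for Tuba3b and -5.20 for Ly6k.

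Markers of other states moved with these libraries, and their part in the values above was not tested. Of 18 listed genes of pluripotency, 3 are in the table, Utf1, Klf2 and Dppa4. Their summed level was between 65.4 and 185 FPKM in MF and between 254 and 714 FPKM in NC, with NC replicate 2 highest. Of the 3, only Klf2 was among the planned markers of the naive state. Of 14 cardiac muscle markers 10 are in the table, with sums between 157 and 696 FPKM in MF and between 35.4 and 82.2 FPKM in NC, and of 10 mesenchyme markers 9 are, with sums between 224 and 1159 FPKM in MF and between 90.9 and 248 FPKM in NC, which overlap. For the sums of both lists MF replicate 2 was the lowest MF library and NC replicate 2 the lowest NC library. Single cardiac genes differed: in MF, Myl2, Tnni3 and Nppb were highest in replicate 2. None of 12 somatic gonad markers is in the table, and of 11 oocyte markers Khdc3 and Padi6 are. Padi6 had 0 counts in all MF libraries and 24 counts over NC. Of the germ cell markers, Dppa3 and Nanos3 are in the table, and Prdm1, Dnd1, Dazl and Ddx4 were not analysed here.

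Most of the tested genes listed in the same pathways as the 6 moved with them. Of 88 other listed genes of germ cell specification, germ cell transcription, meiosis and the piRNA pathway, 30 are in the table and 28 could be tested. Of these 28, 27 fell and 1 rose in MF (edgeR quasi-likelihood test, Benjamini-Hochberg adjustment over 1651 genes), where 35.4% of all tested genes fell. P-values measure only the spread between these samples. All 1651 genes had been selected for a difference in these libraries, so adjusted p-values over them, here and below, are too small. The groups overlapped in none of the 28. Of all tested genes 34.2% had groups that do not overlap with MF lower and 58.4% with MF higher. Of all calls 63.7% were higher in MF, against 33.1% with TMM scaling and 23.8% with median-of-ratios scaling, which moved the median of all genes by -0.70 and -1.05 on the log2 scale. Both scalings were computed from these selected genes alone, although they take most genes to be unchanged. A call lost or kept with them, here and below, therefore does not decide whether a gene changed. With TMM the same number, 27, fell, and with median-of-ratios 25, Smc1b and Tdrd12 no longer being called. The median log2 fold change of the 28 was -1.99, against 1.22 over all tested genes and -1.82 over those that fell. Because the table holds genes already selected for a difference, the listed genes outside it were not analysed here, and these counts say nothing of the lists as a whole. The lists were also chosen with earlier results of these data known. Setting their counts beside the shares of all tested genes, here and below, is therefore a description and no test. When p-values were adjusted for 19069 tests, the number behind the authors' own adjusted p-values, edgeR called 0 of the 1651 genes, while 1613 had an unadjusted p under 0.05; DESeq2 then called 119 lower and 479 higher, 11 of the 27 among the lower. Without MF replicate 3 edgeR called 0 of the 27, with 16 at an unadjusted p under 0.05 and 14 called by DESeq2; it called 7 without MF replicate 1, 17 without NC replicate 1 and 8 without NC replicate 2. "Rose" and "fell" are used in the sense of the first adjustment.

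**Figure D3:**
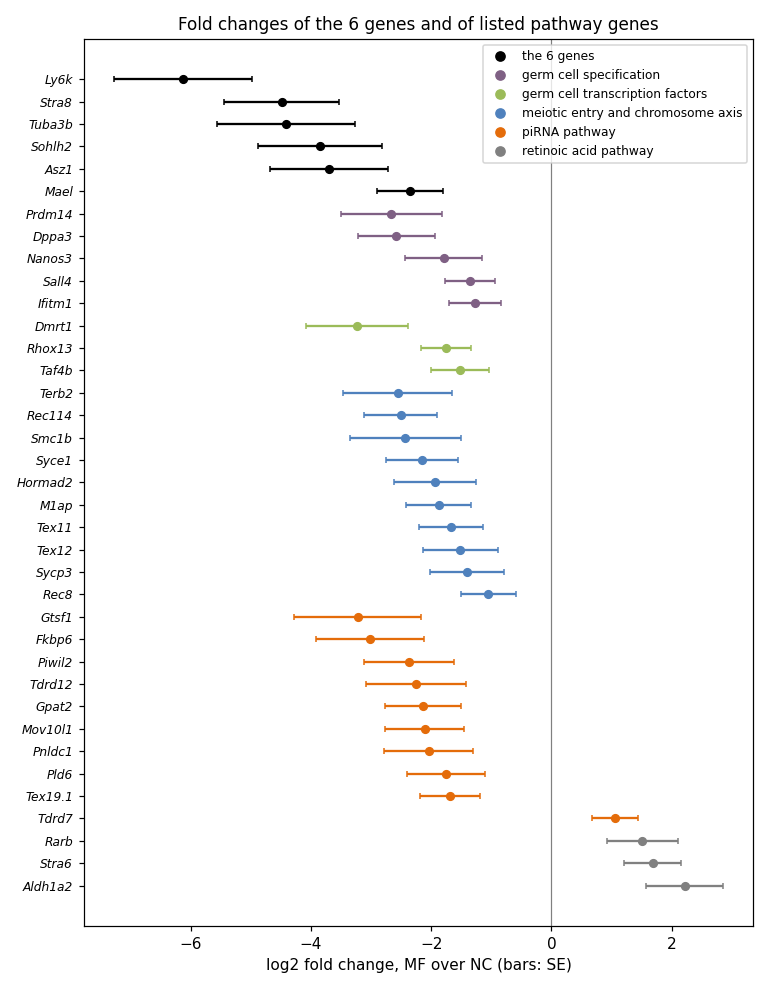
Log2 fold change of MF over NC with its SE for the 6 genes and for the tested members of 5 gene lists. The 6 genes lie between -6.12 and -2.36, the germ cell, meiosis and piRNA genes between -3.23 and -1.05 apart from Tdrd7, and the 3 retinoic acid genes between 1.51 and 2.22.

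Among genes of meiotic chromosomes, all 10 tested genes other than Stra8 fell, where 35.4% of all tested genes fell. Rec114, needed for meiotic DNA breaks, had 1.18, 2.80 and 1.68 FPKM in MF and 8.10, 18.1 and 6.03 FPKM in NC (log2 fold change -2.51, SE 0.60, adjusted p = 0.0163). Syce1, of the synaptonemal complex that joins paired chromosomes, fell with a log2 fold change of -2.15, and Sycp3, of its axis, with -1.40. Smc1b, a meiotic cohesin subunit, had 0.155, 1.51 and 0.896 FPKM in MF and 1.78, 10.4 and 1.64 FPKM in NC, and NC replicate 2 was 6.08 times the mean of the other NC libraries. Rec8, another meiotic cohesin subunit, fell least, with -1.05. Terb2, Hormad2, M1ap, Tex11 and Tex12 fell with log2 fold changes between -2.56 and -1.51. Tex12 differed from the others in that NC replicate 2, at 1.71 FPKM, was its lowest NC library. Gm4969, listed by RefSeq also as Meiosin, the partner of STRA8 in switching on meiotic genes, was below the filter and ran opposite to Stra8. It had 37, 14 and 26 counts in MF and 4, 4 and 4 counts in NC, or 0.310 ± 0.120 FPKM in MF and 0.0548 ± 0.00212 FPKM in NC (SD, n = 3 each). Its groups did not overlap, and with no filter it was called higher in MF. Of the 10 genes that fell, edgeR called 1 without MF replicate 1, 5 without NC replicate 1 and 4 without NC replicate 2. Without MF replicate 3 it called 0, with 4 at an unadjusted p under 0.05 and 4 called by DESeq2.

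Of the 10 tested piRNA pathway genes other than Mael and Asz1, 9 fell and Tdrd7 rose. Of all tested genes 35.4% fell and 62.1% rose. Gtsf1, a partner of PIWI proteins, had 0, 0.599 and 0.442 FPKM in MF and 1.65, 6.03 and 2.07 FPKM in NC (log2 fold change -3.22, SE 1.06, adjusted p = 0.0265). Fkbp6, a co-chaperone of the pathway, fell with -3.02, Piwil2, a PIWI protein, with -2.36, and Tdrd12, Gpat2, Mov10l1, Pnldc1, Pld6 and Tex19.1 with values between -2.25 and -1.69. Tdrd7, a Tudor protein of germ granules that the eye lens also needs, stood at 12.2 ± 0.350 FPKM in MF and 5.88 ± 1.75 FPKM in NC (SD, n = 3 each), with a log2 fold change of 1.06 that was 0.39 with TMM scaling and 0.07 with median-of-ratios scaling and no longer called with either. Piwil4 was below the filter, with 25 counts over MF and 145 over NC. Of the 9 that fell, edgeR called 0 without NC replicate 2, with 3 at an unadjusted p under 0.05 and 3 called by DESeq2, and 0 without MF replicate 3, with 6 at an unadjusted p under 0.05 and 6 called by DESeq2. It called 2 without MF replicate 1 and 6 without NC replicate 1, and with 1 library left out it called Tdrd7 only without MF replicate 2.

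Among germ cell regulators, all 8 tested genes other than Sohlh2 fell, where 35.4% of all tested genes fell. Dmrt1, a transcription factor of the testis and germ cells, had 0.322, 3.35 and 1.26 FPKM in MF and 9.73, 29.7 and 6.79 FPKM in NC (log2 fold change -3.23, SE 0.85, adjusted p = 0.0196). Prdm14, which specifies germ cells and is also a pluripotency factor, fell with -2.66, Dppa3, of early germ cells and naive stem cells, with -2.58, Nanos3, which keeps early germ cells alive, with -1.79, Rhox13 with -1.75, Taf4b with -1.52, Sall4 with -1.36 and Ifitm1 with -1.28. Sall4 and Ifitm1 are not specific to germ cells. Of the 5 specification genes, edgeR called 2 without MF replicate 1, 2 without NC replicate 2 and 3 without NC replicate 1. Of the 3 transcription factor genes it called 2 without MF replicate 1 or NC replicate 2. Without MF replicate 3 it called 0 of both, with 3 and 3 at an unadjusted p under 0.05 and 2 and 2 called by DESeq2. All 8 fell by less than Sohlh2 in the fitted values, which is a description because Sohlh2 was chosen for its change.

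**Figure D4:**
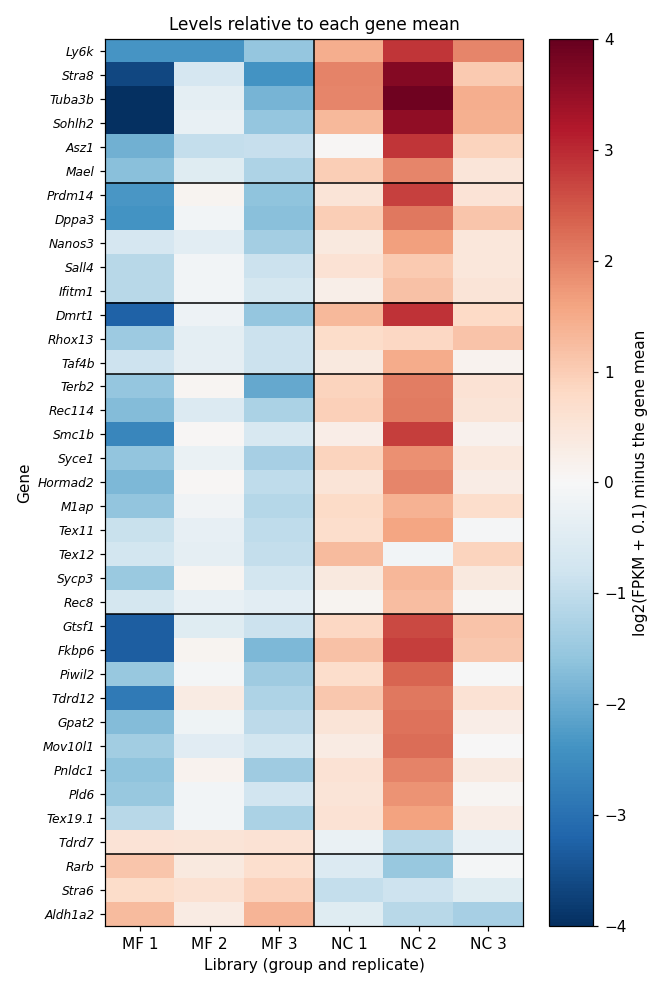
Log2(FPKM + 0.1) minus each gene's mean for the 6 genes, the tested members of 4 germ cell lists and the retinoic acid genes, with libraries in columns. Germ cell rows are mostly blue in MF and red in NC, with MF replicate 2 near the mean in many rows and NC replicate 2 the darkest red in most but palest in Tex12, and Tdrd7 and the 3 retinoic acid genes run the other way.

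Of 18 listed retinoic acid genes described here, 3 are in the table, Aldh1a2, Rarb and Stra6. All 3 rose, the more common direction in this table, where 62.1% of all tested genes rose. Aldh1a2, which makes retinoic acid, had 2.12, 1.05 and 2.25 FPKM in MF and 0.564, 0.329 and 0.266 FPKM in NC (log2 fold change 2.22, SE 0.64, adjusted p = 0.0230). Rarb, a retinoic acid receptor, rose with a log2 fold change of 1.51, and Stra6, a retinol uptake receptor, with 1.68. The groups overlapped in none of the 3, where 58.4% of all tested genes had groups that do not overlap with MF higher. All 3 stayed above 0 with both other scalings, at 0.51 to 1.10 with median-of-ratios, but none was called with either. None was called without MF replicate 1, with 2 at an unadjusted p under 0.05 and 2 called by DESeq2, or without MF replicate 3, with 2 at an unadjusted p under 0.05 and 0 called by DESeq2. Of the 3, 1 was called without NC replicate 1, and 2 were called without NC replicate 2 or NC replicate 3.

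Of 20 listed repressors of germ cell genes 2 are in the table and both fell, where 35.4% of all tested genes fell. Hells, a chromatin remodeller that DNA methylation depends on, had 7.93, 16.9 and 11.9 FPKM in MF and 26.2, 45.1 and 19.0 FPKM in NC (log2 fold change -1.30, SE 0.46, adjusted p = 0.0305). Dnmt3b, a DNA methyltransferase, had 10.2, 23.5 and 8.30 FPKM in MF and 52.1, 14.2 and 48.7 FPKM in NC, with a log2 fold change of -1.45 and overlapping groups. NC replicate 2, in which the 6 genes were highest, was thus the lowest NC library for Dnmt3b and the highest for Hells. With the replicate block Dnmt3b was no longer called (log2 fold change -1.48). Without MF replicate 1 or without MF replicate 3 edgeR called neither gene, neither had an unadjusted p under 0.05, and DESeq2 called 0. Without NC replicate 1 edgeR again called 0, with 1 at an unadjusted p under 0.05 and 1 called by DESeq2. Hells alone was called without NC replicate 3, and Dnmt3b alone without NC replicate 2. Mga, Max, E2f6 and Pcgf6 are not in the table and were not analysed here.

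The families of Tuba3b and Ly6k went both ways, as did all tested genes, of which 35.4% fell and 62.1% rose. Of 7 other alpha-tubulin genes 3 are in the table. Tuba3a and Tuba4a fell, Tuba4a with a log2 fold change of -1.23, and Tuba8 rose with 1.46. Of 24 other genes listed with Ly6k, 5 are in the table and 4 could be tested. Tex101, a sperm surface protein that forms a complex with LY6K in mouse testis, had 0.0944, 0.395 and 0.0371 FPKM in MF and 0.732, 2.85 and 0.445 FPKM in NC (log2 fold change -2.91, SE 1.04, adjusted p = 0.0301). Ly6a, a surface protein of blood progenitors and other cells, fell with -2.28, and Psca and Ly6h rose with 1.11 and 1.98. Lypd1 was below the filter. With TMM or median-of-ratios scaling Tuba8, Psca and Ly6h stayed above 0 but were not called, and Tex101 stayed below 0 but was not called with median-of-ratios. Ly6h was not called with the replicate block (log2 fold change 2.16) and, with 1 library left out, was called only without NC replicate 3. Psca was not called without MF replicate 1, MF replicate 3, NC replicate 1 or NC replicate 2, and with 1 library left out Tuba8 was called only without MF replicate 2. Tex101 was not called without MF replicate 1, MF replicate 3 or NC replicate 2, Tuba4a without MF replicate 1, MF replicate 3 or NC replicate 1, Tuba3a without MF replicate 3 or NC replicate 2, and Ly6a without MF replicate 3.

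The genes whose pattern over the 6 libraries was most like the mean pattern of the 6 were found by the root mean square difference of centred log2(FPKM + 0.1). Among 1503 other named and tested genes without predicted models, the nearest were Xlr5c (0.30), Dmrt1 (0.33), Mep1b (0.40), Aurkc (0.40) and Nlrp4c (0.41), where the median over all 1503 was 2.74. That median includes many genes that ran the other way, as 62.1% of all tested genes rose in MF. Each of the 6 genes was farther from their own mean, from 0.54 for Stra8 to 0.89 for Tuba3b. Aurkc had 0.205, 2.97 and 0.645 FPKM in MF and 7.80, 25.5 and 6.55 FPKM in NC. Xlr5c has near-identical copies, and its counts are uncertain.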

How the data were processed

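Poly-A RNA from 3 MF and 3 NC libraries was sequenced. Per the submitters' processing notes, HISAT2 2.0.5, featureCounts and mm10 were used. The authors deposited counts and FPKM per gene, and a table with normalized counts (a signal scaled by library total), log2 fold changes, p-values and adjusted p-values, for 2031 genes past their thresholds. Library totals were recovered from the deposited counts, FPKM and gene lengths. The 48 rows with no gene name, 0.0134 to 0.0391% of each total, were left out, and 4 names turned into dates were restored.

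Counts of the 1651 named genes that averaged 0.5 FPKM or more were tested, two-sided, with edgeR 4.0.16 (quasi-likelihood, library totals as sizes) in R 4.3.3, with Benjamini-Hochberg adjustment and a threshold of 0.05; 332 genes were below the filter. DESeq2 1.42.0, limma 3.58.1, other scalings, filters, pseudocounts and left-out libraries were alternatives. DESeq2 with 1 library left out was chosen after seeing the data. The SE given with each edgeR log2 fold change was derived from the test. It is the absolute log2 fold change divided by the square root of the F statistic. Tables were joined with Python 3.11.15, and promoter windows came from RefSeq. The genes and lists were chosen with earlier results of these data known. Named genes are the 6 genes, every gene of their pathway lists in the table (1 retinoic acid gene is not reported here), the 5 most alike in pattern and the leading markers. Deviations from the group means correlated between libraries with the same replicate number (0.378, 0.551 and 0.374), so the numbers were taken to pair the libraries; this comes from the values, not from the labels, and MF replicate 1 correlated more with NC replicate 3 (0.559). Deviations within a group cancel out, and replicate 2 stood apart in both groups. Positive correlations of replicates 1 and 3 therefore do not establish the pairing. Intervals cover counting error only.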

Additional observations from a re-analysis of the deposited data

How the results depend on the processing

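Each of the 6 genes stayed lower in MF in every alternative run that fitted it. For all 6, every NC library lay above every MF library, so leaving out libraries could not reverse this direction. The main counts were 584 lower, 1026 higher and 27 lower germ cell genes. TMM scaling gave 291 higher, with log2 fold changes of -3.08 for Mael and -6.83 for Ly6k; median-of-ratios gave 158 higher, -3.41 for Mael, -4.89 for Asz1 and -7.21 for Ly6k. A filter at 2 FPKM gave 369 lower and 611 higher and removed Asz1 and Ly6k. With limma, Asz1 and Ly6k were -1.04 and -1.61 with a pseudocount of 1, and -2.52 and -4.17 with 0.1. Adjusted over 19069 tests, edgeR called 0 lower, 0 higher and 0 germ cell genes, since the adjustment covers more genes. With the replicate block the counts were 590, 1030 and 27, and Asz1 and Ly6k were -3.41 and -6.07, and over 19069 tests the block gave 128 lower and 376 higher. Without both replicate 2 libraries Ly6k was -5.20. Leaving out 1 library gave 0 to 582 lower, 12 to 996 higher and 0 to 26 germ cell genes, the lowest without MF replicate 3; the ranges were -5.80 to -3.41 for Stra8, -4.98 to -2.71 for Sohlh2, -2.76 to -1.84 for Mael, -4.15 to -2.33 for Asz1, -5.79 to -3.29 for Tuba3b and -7.96 to -5.62 for Ly6k. The cause of these shifts was not tested. TMM and median-of-ratios factors came from the tested genes alone, all selected for a difference, although both methods take most genes to be unchanged. Counts of at most 8 in MF limit Asz1 and Ly6k. All tested genes had been selected for a difference, so adjusted p-values over 1651 genes are too small.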

Other observations

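Khdc3, an oocyte gene also expressed in embryonic stem cells, was low and high in the same libraries as Stra8 and Tuba3b. It had 0.0509, 2.76 and 0.779 FPKM in MF replicates 1, 2 and 3, against 7.95, 29.3 and 8.07 FPKM in NC replicates 1, 2 and 3. MF replicate 1 was the lowest library, NC replicate 2 the highest, and the groups did not overlap. Its log2 fold change was -3.66 (SE 1.06), with an adjusted p of 0.0232 by edgeR over 1651 genes. It was not called without NC replicate 2 (log2 fold change -2.74) or without MF replicate 3 (-3.43); in both cases its unadjusted p was under 0.05 and DESeq2 called it.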
